A study of Mus musculus with 32 samples.

Results

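Interferon-stimulated genes are the genes that cells switch on once an interferon has bound its receptor, and 35 of them were followed here through mouse liver on 2 diets. They were found by symbol in the deposited table of raw read counts, which lists 54532 genes. All 35 passed the filter on low counts, which left 17853 genes for testing. By role they were 4 transcription factors, 2 genes of the ISG15 system, 4 IFIT genes, 6 OAS genes, 5 GTPases of the MX and GBP families, 4 nucleic acid sensors and 10 membrane proteins and other effectors. The tested diet was cdHFD, a high-fat diet that contains no choline and little methionine, and it was compared with normal chow. All mice were wild type and ate their diet for 2 weeks. Livers were collected at zeitgeber time (ZT, counted in hours from the time the lights come on) 2, 8, 14 and 20, with 4 libraries of polyadenylated RNA for each diet and time. The 16 cdHFD libraries came from 7 females and 9 males, and ZT14 held 1 female and 3 males. The 16 chow libraries came from 8 females and 8 males. The labels do not say that each library is another animal, and where they are not, the spread behind the p-values may be technical. The labels give neither strain nor age.

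Interferons of type I signal through Ifnar1 and Ifnar2, and interferon gamma through Ifngr1 and Ifngr2. Kinases of the Janus family then phosphorylate signal transducers such as Stat2, which joins Irf9 in a complex called ISGF3 that binds a DNA element, the ISRE, in front of its target genes. Interferon gamma acts mainly through another element, the GAS. The target genes encode antiviral enzymes, sensors of foreign nucleic acid and brakes on the pathway, and in liver both hepatocytes and resident macrophages respond.

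Total counts ranged from 29.5 to 49.7 M in cdHFD libraries and from 30.5 to 54.6 M in chow libraries. The lowest raw count of any of the 35 genes in any library was 18. Levels below are in CPM, counts relative to the library's total after scaling by TMM, a method that presumes that most genes do not change, and its factors ranged from 1.08 to 1.38 in cdHFD and from 0.746 to 0.918 in chow. Log2 fold changes are cdHFD over chow from edgeR's quasi-likelihood test, with p-values adjusted by Benjamini and Hochberg over all genes tested and called under 0.05. The SE beside each comes from a linear model of log2 CPM. The tissue label was checked with 10 hepatocyte markers, whose summed level ranged from 46583 to 82412 CPM in cdHFD livers and from 133744 to 205612 CPM in chow livers. All 10 were lower in cdHFD, against 31.2% of all genes tested.

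The element on which the pathway ends could be read in front of many of the 35 genes. The genes were chosen as targets of this pathway, so their share with the element describes them and is not independent of that choice. RefSeq promoter windows of build GRCm38.p6, with 250 bases before and 50 after each transcript start, were available for 26 of the 35. The ISRE was searched as GAAANNGAAA and, on the other strand, TTTCNNTTTC, where N is any base. It was present in 16 of the 26 (61.5%), against 3.99% of 27025 genes with such windows. In Ifih1, Ddx58 and Ifitm3 the only matches lay after the start. The GAS, searched as TTCNNNGAA, which reads the same on both strands, was present in 7 of the 26 (26.9%), against 9.55% of genes. In the lines below, each of 160 bases up to the start and written 5′ to 3′ on the gene's own strand, capitals mark the ISRE or, for Irf1, the GAS.
Isg15 (chr4:156200819-156200978, minus strand): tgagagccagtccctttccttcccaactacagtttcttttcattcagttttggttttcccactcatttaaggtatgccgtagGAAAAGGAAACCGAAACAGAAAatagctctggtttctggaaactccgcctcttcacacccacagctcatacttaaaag
Oas3 (chr5:120777660-120777819, minus strand): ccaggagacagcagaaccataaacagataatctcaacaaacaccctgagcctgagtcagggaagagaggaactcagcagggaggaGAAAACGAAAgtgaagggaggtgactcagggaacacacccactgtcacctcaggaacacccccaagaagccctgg
Oas1a (chr5:120907526-120907685, minus strand): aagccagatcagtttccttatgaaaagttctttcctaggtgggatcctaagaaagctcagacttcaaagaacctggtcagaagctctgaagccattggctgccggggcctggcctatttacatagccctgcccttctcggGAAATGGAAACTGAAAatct
Oas1g (chr5:120887614-120887773, minus strand): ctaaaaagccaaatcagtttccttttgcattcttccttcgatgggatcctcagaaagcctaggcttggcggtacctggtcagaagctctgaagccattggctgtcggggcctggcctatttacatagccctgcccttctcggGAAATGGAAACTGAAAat
Ifit1 (chr19:34640729-34640888, plus strand): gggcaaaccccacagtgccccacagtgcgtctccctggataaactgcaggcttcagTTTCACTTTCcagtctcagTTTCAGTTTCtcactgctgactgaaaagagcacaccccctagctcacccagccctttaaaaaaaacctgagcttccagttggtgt
Ifit3 (chr19:34583369-34583528, plus strand): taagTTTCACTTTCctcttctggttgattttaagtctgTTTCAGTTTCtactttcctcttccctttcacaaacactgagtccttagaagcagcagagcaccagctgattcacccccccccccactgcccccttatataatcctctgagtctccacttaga
Gbp7 (chr3:142530176-142530335, plus strand): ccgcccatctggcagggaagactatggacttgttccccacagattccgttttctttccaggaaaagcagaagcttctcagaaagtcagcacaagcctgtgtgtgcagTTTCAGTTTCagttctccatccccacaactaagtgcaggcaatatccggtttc
Irf1 (chr11:53769854-53770013, plus strand): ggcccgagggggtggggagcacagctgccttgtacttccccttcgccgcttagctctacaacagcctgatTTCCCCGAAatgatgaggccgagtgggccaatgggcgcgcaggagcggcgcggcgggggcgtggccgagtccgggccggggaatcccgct

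Isg15, Oas1a and Oas1g carry overlapping copies, so that their capitals run beyond a single element. With the transcript start at position 0, the first copy begins at -78 in Isg15 and the single copy of Oas3 at -75. Oas1a and Oas1g hold theirs closer, from -20 and -18. Ifit1 and Ifit3 each hold 2 separate copies. The match was set beside the diet call. Of the 16 genes with a match 10 were higher in cdHFD, and of the 10 matched genes without one 7 were. Over all genes tested, 31% were higher. Gbp7 shows an ISRE and had a diet log2 fold change of 0.02 ± 0.15. A match describes letters in a window and says nothing of binding.

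In cdHFD livers 24 of the 35 genes were higher than in chow livers, against 31% of all genes tested, and 1 was lower, against 31.2%. The median log2 fold change of the 35 was 0.72, beside -0.016 over all genes tested. In the OAS family 6 of 6 genes were higher, and among the transcription factors 1 of 4 was higher and 1 lower. On total counts alone the median of all genes was 0.556 and that of the 35 genes 1.29. The gap between the 2 medians was 0.73 to 0.74 under every scaling tried. Total counts alone called 34 of the 35 higher and none lower, but that scaling moved the median of all genes upward too. The share of all genes called under it is not given. In 4 genes every cdHFD library lay above every chow library, as in 5.86% of genes tested, and in none did every cdHFD library lie below, as in 2.68%. Those 4 were Oas3, Oas1a, Oasl2 and Ifit2.

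**Figure D1:**
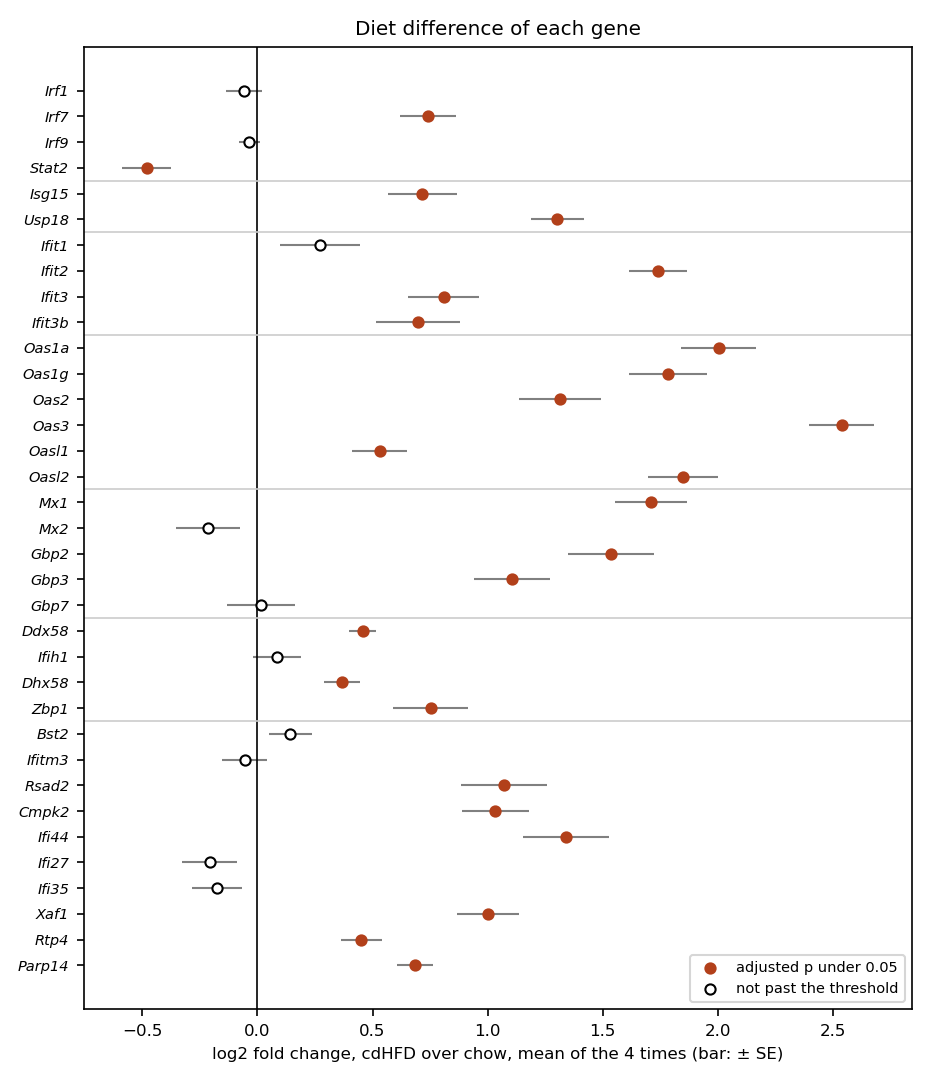
Log2 fold change of each of the 35 genes, cdHFD over chow as the mean of the 4 times (x axis), by role from transcription factors at the top to effectors at the bottom. Points are edgeR estimates, bars are ± SE from the linear model of log2 CPM, and filled points have an adjusted p under 0.05. Oas3 lies farthest right at 2.54 and Stat2 is the filled point left of 0.

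The OAS enzymes sense double-stranded RNA and make oligoadenylates that activate ribonuclease L. Oas1a, Oas1g, Oas2 and Oas3 lie in a cluster on chromosome 5 (build GRCm38; Oas3 at chr5:120753098-120777661). Oas3 ranged from 7.09 to 12.7 CPM (median 9.21) in cdHFD livers and from 0.551 to 4.20 CPM (median 1.59) in chow livers. Its log2 fold change was 2.54 ± 0.14 (adjusted p = 7.23e-16). The groups did not overlap. Oas1a (chr5:120896256-120907521) ranged from 13.9 to 22.4 CPM (median 17.5) in cdHFD livers, against 1.16 to 7.54 CPM (median 4.92) in chow livers, a log2 fold change of 2.00 ± 0.16 (adjusted p = 2.04e-13). Oas1g, its neighbour and close copy at chr5:120876142-120887613, ranged from 6.12 to 13.3 CPM (median 9.92) in cdHFD livers and from 0.994 to 9.58 CPM (median 3.23) in chow livers. The groups of Oas1g overlapped through 1 chow liver, the female replicate 3 at ZT2 with 9.58 CPM, and its log2 fold change was 1.78 ± 0.17 (adjusted p = 2.24e-11). How reads common to Oas1a and Oas1g were counted is not stated in the labels or the submitters' notes, so their separate values are uncertain.

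Oas2 (chr5:120730333-120749853) ranged from 10.3 to 31.9 CPM (median 21.7) in cdHFD livers and from 2.97 to 32.8 CPM (median 9.49) in chow livers, with a log2 fold change of 1.31 ± 0.18 (adjusted p = 5.57e-08). The highest value of all 32 was again chow ZT2 replicate 3. Oasl2 (chr5:114896936-114912234) ranged from 17.1 to 36.0 CPM (median 24) in cdHFD livers, against 2.88 to 13.3 CPM (median 7.48) in chow livers, without overlap (log2 fold change 1.85 ± 0.15, adjusted p = 1.77e-12). Oasl1, known in mice to hold back the translation of Irf7 mRNA, had the smallest difference of the family at 0.53 ± 0.12 (adjusted p = 2.19e-04).

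By time, 4 of the 6 OAS genes were called higher at ZT2, 6 at ZT8, 6 at ZT14 and 5 at ZT20. Over all genes tested, 21%, 20.6%, 19.8% and 19.8% were higher at those times. The ZT2 call of Oas1g (adjusted p = 0.0272) was lost in 5 of the 32 fits that left out 1 library (adjusted p = 0.0536 to 0.103). Oas2 (0.29 ± 0.36, adjusted p = 0.483) and Oasl1 (0.11 ± 0.24, adjusted p = 0.735) were the log2 fold changes not called at ZT2, and Oasl1 (-0.44 ± 0.24, adjusted p = 0.13) the one not called at ZT20. Oas3 averaged 9.23 ± 1.27, 9.76 ± 2.30, 9.02 ± 0.597 and 8.36 ± 1.09 CPM at ZT2, ZT8, ZT14 and ZT20 in cdHFD livers, against 2.70 ± 1.27, 1.43 ± 0.639, 1.34 ± 0.542 and 1.49 ± 0.666 CPM in chow livers (SD, n = 4 per time). Oas1a averaged 15.3 ± 1.44, 19.99 ± 1.63, 17.5 ± 2.40 and 17.8 ± 1.35 CPM at those times in cdHFD livers and 5.0 ± 1.93, 5.30 ± 2.88, 4.39 ± 0.643 and 3.93 ± 1.48 CPM in chow livers. Oas1g averaged 8.82 ± 2.36, 10.8 ± 1.47, 11.2 ± 1.97 and 9.66 ± 1.37 CPM in cdHFD livers and 5.13 ± 3.07, 2.77 ± 1.14, 2.79 ± 1.21 and 2.21 ± 0.455 CPM in chow livers. Every cdHFD mean of these genes was above every chow mean. Oasl2 averaged 22.7 ± 4.64, 30.7 ± 5.71, 24.4 ± 5.92 and 22.4 ± 6.01 CPM in cdHFD livers and 9.23 ± 4.41, 7.92 ± 3.56, 6.29 ± 1.90 and 5.99 ± 1.88 CPM in chow livers. Oas2 averaged 20.1 ± 8.89, 24.1 ± 4.56, 26.3 ± 4.58 and 18.3 ± 3.86 CPM in cdHFD livers and 16.4 ± 11.7, 6.95 ± 3.36, 9.16 ± 3.07 and 7.50 ± 2.72 CPM in chow livers. Here too every cdHFD mean was above every chow mean, and the chow spread at ZT2 was wide through replicate 3.

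The IFIT proteins bind foreign RNA and lie in a cluster on chromosome 19. Ifit2 (chr19:34550694-34576419) ranged from 7.41 to 16.8 CPM (median 11.4) in cdHFD livers and from 1.35 to 5.38 CPM (median 3.49) in chow livers, without overlap, and its log2 fold change was 1.74 ± 0.13 (adjusted p = 2.16e-13). By time it averaged 10.5 ± 4.02, 15 ± 2.07, 10.1 ± 1.74 and 9.71 ± 2.30 CPM in cdHFD livers, against 3.87 ± 0.662, 3.45 ± 1.47, 2.80 ± 1.25 and 3.85 ± 1.16 CPM in chow livers. Ifit3 and Ifit3b, which are close copies and may share reads, were higher by 0.81 ± 0.15 and 0.70 ± 0.18 on the log2 scale. Ifit1 (chr19:34640871-34650009) ranged from 7.58 to 25.1 CPM (median 15.7) in cdHFD livers and from 5.71 to 36.6 CPM (median 10.7) in chow livers. The groups overlapped widely, the 2 highest livers of all being the chow females at ZT2. Its log2 fold change was 0.27 ± 0.17 (adjusted p = 0.149), which passed the threshold without chow ZT8 replicate 2 (adjusted p = 0.0223), with no filter on low counts (adjusted p = 0.00853) and, at 0.85, on total counts alone (adjusted p = 3.2e-05). By time Ifit1 averaged 13.3 ± 3.77, 19.9 ± 3.80, 17.5 ± 4.17 and 8.87 ± 1.31 CPM in cdHFD livers and 21.6 ± 14.2, 13.8 ± 6.52, 9.20 ± 2.30 and 8.82 ± 3.02 CPM in chow livers, so that the cdHFD mean was the lower one at ZT2 only.

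Isg15 (chr4:156199424-156200818) encodes a ubiquitin-like protein that is attached to other proteins, and Usp18 (chr6:121245906-121270917) the protease that removes it and also restrains the type I receptor. Usp18 ranged from 18.2 to 42.1 CPM (median 31.4) in cdHFD livers and from 7.74 to 24.7 CPM (median 9.72) in chow livers, with a log2 fold change of 1.30 ± 0.12 (adjusted p = 1.29e-11). It averaged 30.7 ± 10.5, 39.0 ± 2.41, 31.3 ± 2.47 and 19.8 ± 1.18 CPM by time in cdHFD livers and 13.6 ± 6.69, 18.3 ± 6.57, 8.86 ± 0.686 and 10.2 ± 1.91 CPM in chow livers. Isg15 ranged from 20.3 to 54.2 CPM (median 30.01) in cdHFD livers and from 9.40 to 51.6 CPM (median 16.5) in chow livers, with a log2 fold change of 0.72 ± 0.15 (adjusted p = 6.01e-05). Both overlapped between diets, and the highest chow livers were at ZT2 for Isg15 and at ZT8 for Usp18.

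Among the transcription factors, Irf7, which raises the production of type I interferons, was higher in cdHFD. Irf7 (chr7:141262706-141266481) ranged from 73.7 to 161 CPM (median 106) in cdHFD livers and from 40.4 to 103 CPM (median 64.5) in chow livers (log2 fold change 0.74 ± 0.12, adjusted p = 1.29e-06). By time it averaged 103 ± 27.1, 119 ± 12.7, 136 ± 28.2 and 96.5 ± 10.6 CPM in cdHFD livers and 74.6 ± 24.4, 83.8 ± 28, 64.8 ± 7.37 and 53.9 ± 7.08 CPM in chow livers. Stat2 (chr10:128270559-128292849), a subunit of ISGF3, was the only one of the 35 called lower. It ranged from 69.3 to 136 CPM (median 86.7) in cdHFD livers and from 72.8 to 225 CPM (median 124) in chow livers, and its log2 fold change of -0.48 ± 0.11 (adjusted p = 1.58e-04) turned to 0.09 (adjusted p = 0.427) on total counts alone. Irf9, the DNA-binding subunit of the same complex, had -0.04 ± 0.05 (adjusted p = 0.583), and Irf1, which responds to interferon gamma, had -0.06 ± 0.08 (adjusted p = 0.521). On total counts alone both turned to the other sign, Irf9 at 0.54 and Irf1 at 0.52.

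Mx1 and Mx2 encode dynamin-like GTPases that block viruses, and the guanylate-binding proteins attack the compartments of intracellular microbes. Mx1 (chr16:97447035-97462907) ranged from 4.12 to 11 CPM (median 7.13) in cdHFD livers and from 0.639 to 6.14 CPM (median 2.22) in chow livers, with a log2 fold change of 1.71 ± 0.15 (adjusted p = 2.82e-11). Only the 2 chow females at ZT2 reached into the cdHFD range. Mx2 (chr16:97535308-97560900), close by and similar in sequence, had -0.21 ± 0.14 (adjusted p = 0.158; 0.36 on total counts alone). Gbp2 (chr3:142620602-142638008) ranged from 6.51 to 18.3 CPM (median 11.6) in cdHFD livers and from 1.51 to 8.06 CPM (median 4.12) in chow livers (log2 fold change 1.54 ± 0.19, adjusted p = 5.49e-09), where 5 chow livers reached into the cdHFD range. Gbp3 was higher by 1.11 ± 0.16 (adjusted p = 3.64e-07), and Gbp7 was not called at 0.02 ± 0.15 (adjusted p = 0.928). The sign of Gbp7 turned in 11 of the 32 fits that left out 1 library, with values between -0.05 and 0.08. Mx1 averaged 6.27 ± 1.89, 9.25 ± 1.63, 6.14 ± 1.99 and 7.18 ± 2.49 CPM by time in cdHFD livers and 3.97 ± 1.66, 2.45 ± 0.849, 1.39 ± 0.575 and 1.89 ± 0.581 CPM in chow livers. Gbp2 averaged 12.6 ± 3.63, 13.5 ± 3.63, 10.02 ± 3.93 and 12.4 ± 3.23 CPM in cdHFD livers and 3.68 ± 1.70, 6.05 ± 2.66, 4.06 ± 1.79 and 4.22 ± 2.16 CPM in chow livers. In both genes each cdHFD mean was above each chow mean.

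On the log2 scale, among the sensors Ddx58 (RIG-I, a receptor for viral RNA) was higher by 0.46 ± 0.06, Dhx58 (its regulator LGP2) by 0.37 ± 0.08 and Zbp1, a sensor of Z-form nucleic acid, by 0.75 ± 0.16. Ifih1, which encodes the RNA sensor MDA5, was at 0.08 ± 0.11 (adjusted p = 0.472). Of the 10 effectors 6 were higher, against 31% of all genes tested. Ifi44 (chr3:151730922-151749960) ranged from 6.73 to 11.2 CPM (median 9.13) in cdHFD livers and from 0.877 to 7.95 CPM (median 3.80) in chow livers (log2 fold change 1.34 ± 0.19, adjusted p = 6.82e-08), and 1 chow liver, the female replicate 4 at ZT8, reached into the cdHFD range. It averaged 8.05 ± 1.36, 10.2 ± 1.14, 9.65 ± 1.31 and 7.80 ± 0.683 CPM by time in cdHFD livers and 3.46 ± 2.47, 5.67 ± 2.40, 3.86 ± 1.80 and 2.84 ± 1.26 CPM in chow livers. Rsad2 (viperin, which makes a chain-terminating nucleotide) and its neighbour on chromosome 12, the nucleotide kinase Cmpk2, were higher by 1.07 ± 0.19 and 1.03 ± 0.15. Xaf1, which favours cell death, was higher by 1.0 ± 0.13, the ADP-ribosyltransferase Parp14 by 0.68 ± 0.08 and the receptor chaperone Rtp4 by 0.45 ± 0.09.

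The other 4 effectors were not called. Their log2 fold changes were, for Bst2 (tetherin, which holds budding virus at the cell surface), 0.14, for Ifitm3, which blocks the entry of viruses, -0.06, for Ifi35 -0.17 and for Ifi27 -0.21. On total counts alone the last 3 had the other sign, at 0.52, 0.40 and 0.36. Ifi27 passed the threshold without cdHFD ZT20 replicate 1 (adjusted p = 0.0429) and Ifi35 without cdHFD ZT2 replicate 4 (adjusted p = 0.0339). Per kilobase of exon Ifitm3 and Bst2 were the most abundant of the 35. Ifitm3 lay at 1005 CPM per kb in cdHFD and 1044 CPM per kb in chow, and Bst2 at 397 CPM per kb in cdHFD and 359 CPM per kb in chow. Oas3, with the largest diet difference, had the lowest level per length of the 35 in both diets, at 1.29 CPM per kb in cdHFD and 0.246 CPM per kb in chow. Exons of 11 of the 35 genes overlap another gene. The libraries do not mark strand, so reads on the shared bases cannot be told apart for Ifi35 (16.8% of its exon bases), Usp18 (4.44%), Dhx58 (4.31%), Irf1 (3.4%), Oasl1 (1.46%), Irf7 (1.19%) and Gbp2 (0.954%), whose partner lies on the other strand. Rtp4 (13.9%), Gbp7 (11.3%), Irf9 (2.28%) and Parp14 (1.18%) overlap a gene on their own strand.

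**Figure D2:**
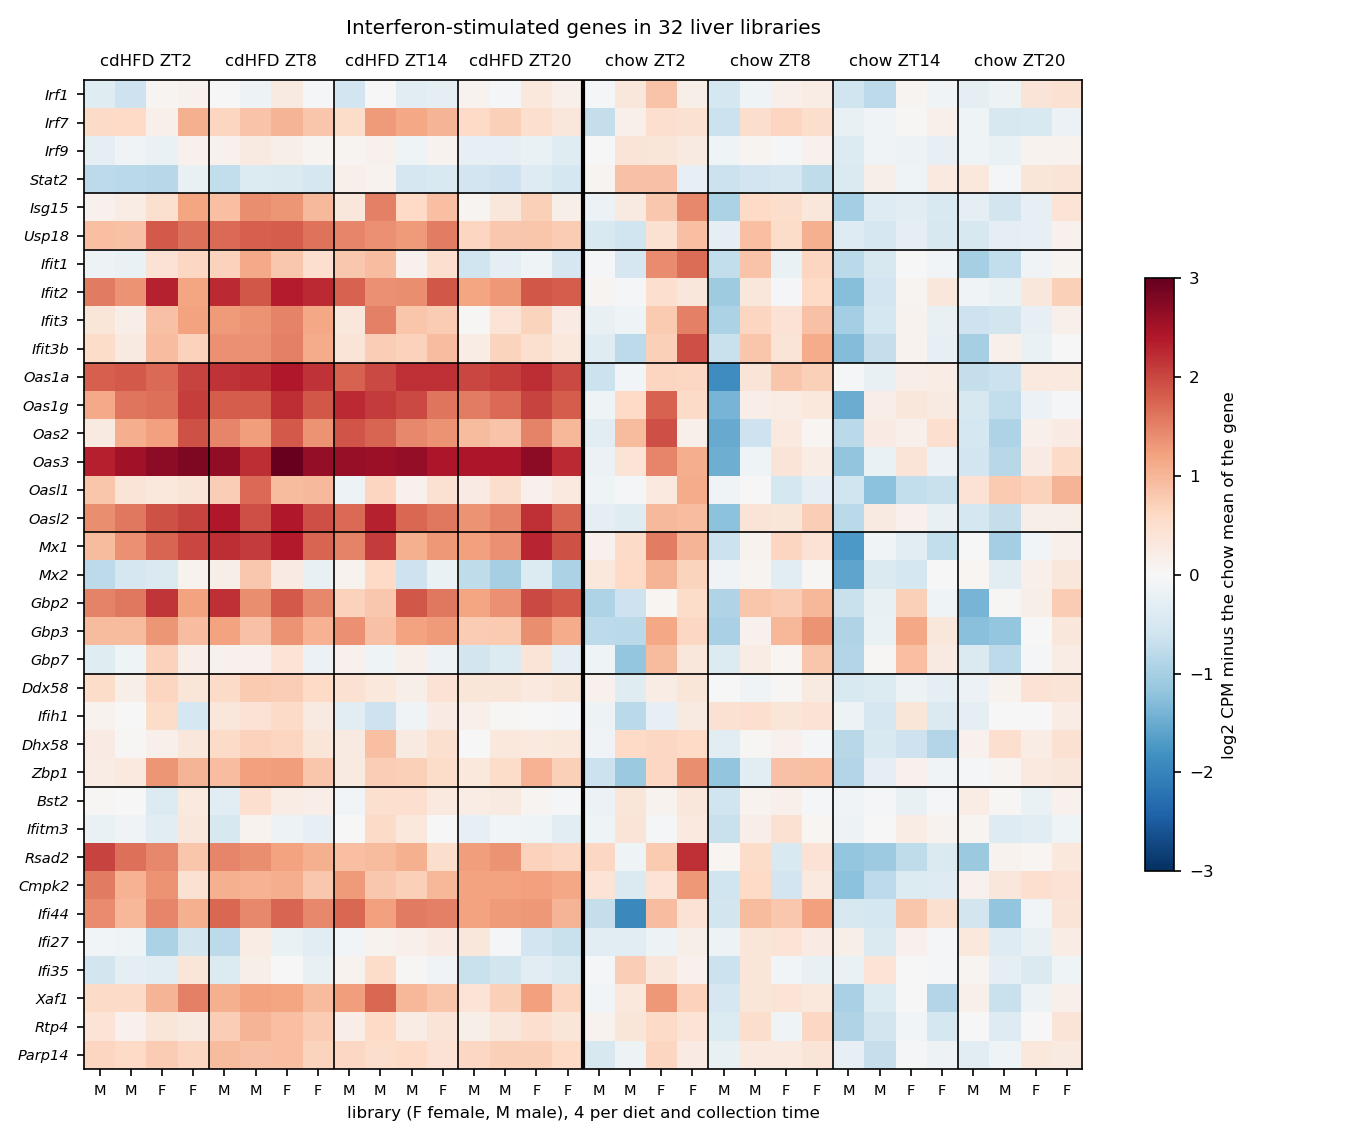
Level of each of the 35 genes (rows, by role) in each of the 32 libraries (columns, 4 per diet and time, F female and M male), as log2 CPM minus the mean of the gene over the 16 chow libraries. Red is above and blue below that mean. Except Oasl1, which is blue in cdHFD ZT14 replicate 1, the OAS rows are red across all cdHFD libraries, Stat2 is blue in most of them, and chow ZT8 replicate 1 and chow ZT14 replicate 1 are the bluest chow columns.

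Markers of other cell types moved with the diet. Over all genes tested, 31% were higher in cdHFD and 31.2% lower. All 13 markers of Kupffer cells and macrophages were higher in cdHFD, their summed level was 1332 to 2266 CPM in cdHFD livers, against 156 to 727 CPM in chow livers, and none was at 0 in either diet. All 6 tested neutrophil markers were higher (9 listed; summed level 11.9 to 77.1 CPM in cdHFD livers and 2.56 to 11.8 CPM in chow livers). Of the other lists, 7 of 8 plasmacytoid dendritic cell markers were higher, 5 of 11 T and NK cell markers were higher, and of 7 sinusoidal endothelial markers 3 were higher and 2 lower. Bst2, 1 of the 35, is also on the plasmacytoid list and is its only marker not called. The part of these cells in the diet difference of the 35 genes was not tested. In whole tissue, fewer cells of a type and less RNA per cell cannot be told apart.

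The interferon genes themselves were barely read. None of the 12 listed passed the filter, and the 16 cdHFD livers together held 82 counts of Ifng, 21 of Ifnk, 6 of Ifnb1, 2 of Ifna13 and 1 of Ifnl3. The 16 chow livers held 32 counts of Ifng, 1 of Ifnk, 3 of Ifnb1, 1 of Ifna13 and 0 of Ifnl3. Ifna1, Ifna2, Ifna4, Ifna5, Ifna11, Ifne and Ifnl2 had no counts in either diet. Of 6 receptor genes 5 were higher, against 31% of all genes tested. On the log2 scale Ifngr1 was higher by 1.31 ± 0.07, Ifngr2 by 1.30 ± 0.10, Ifnlr1, the receptor of lambda interferons, by 2.00 ± 0.28, its partner Il10rb by 1.60 ± 0.08 and Ifnar1 by 0.22 ± 0.06. Ifnar2 was not called at -0.14 ± 0.08 (0.44 on total counts alone). Of the Janus kinases, Jak1 was higher by 0.34 ± 0.03 and Jak2 by 0.31 ± 0.09, while Tyk2 was not called at -0.03 ± 0.07. The signal transducer Stat3 was lower by call at -0.21 ± 0.09 (adjusted p = 0.0412), and that call was lost in 16 of the 32 fits that left out 1 library (adjusted p = 0.053 to 0.0855) and turned to 0.37 on total counts alone.

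Of 12 sensors and adaptors upstream of interferon production 10 were higher (against 31% of all genes tested) and 2 lower (against 31.2%). The endosomal receptors Tlr7 and Tlr9 led with log2 fold changes of 2.44 ± 0.24 and 2.43 ± 0.35, followed by Tmem173 (STING, the adaptor for cytosolic DNA) at 1.61 ± 0.12 and Mb21d1 (cGAS, which makes its messenger) at 1.48 ± 0.16. Irf5 was at 0.80, Ikbke at 0.69, Tlr3 at 0.40, Myd88 at 0.23, Tbk1 at 0.22 and Ticam1 at 0.24, whose call was lost in 6 of the 32 fits that left out 1 library (adjusted p = 0.0517 to 0.0638). Mavs, the adaptor of Ddx58 and Ifih1, was lower at -0.66 ± 0.10 but was not called on total counts alone (-0.10, adjusted p = 0.308), and Irf3, the factor that starts interferon transcription, was lower at -0.42 ± 0.08 but had 0.15 on total counts alone. Of 10 tested inhibitors 7 were higher and 1 lower, against the same 31% and 31.2%. These were Samhd1 at 0.90, Ptpn6 at 0.88, Socs1 at 0.83, Ptpn1 at 0.66, Irf2bp2 at 0.37, Adar at 0.26, Ptpn2 at 0.17 and, lower, Irf2 at -0.19 (0.38 on total counts alone). Ptpn2 and Irf2 lost their calls with no filter on low counts (adjusted p = 0.104 and 0.152) and in males alone (adjusted p = 0.0881 and 0.118). Socs3 and Pias1 were not called at -0.03 and -0.02, and Trex1 had no counts.

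Of 12 genes of the immunoproteasome and of class I presentation, further targets of the pathway, 4 were higher and 3 lower. Over all genes tested 31% were higher and 31.2% lower, so these counts lie near those shares. H2-D1 had a log2 fold change of 0.63 ± 0.07, Tapbp 0.29, Tap1 0.25 and Tap2 0.24, while H2-K1 had -0.38, B2m -0.37 and Psme2 -0.22, and the 3 lower genes turned to 0.19, 0.20 and 0.36 on total counts alone. The call of Psme2 was also lost in 5 of the 32 fits that left out 1 library (adjusted p = 0.0506 to 0.0776). Reads of the near-identical class I genes H2-K1 and H2-D1 may be split between them. Psmb8, Psmb9, Psmb10, Psme1 and Nlrc5 were not called, at 0.06, 0.18, 0.01, -0.16 and 0.21. Nlrc5 passed the threshold with no filter on low counts (adjusted p = 0.0257) and without chow ZT14 replicate 2 (adjusted p = 0.0421). It had 0.38 in females alone and -0.05 in males alone. Psme1 was called lower in males alone (-0.38, adjusted p = 0.019) and had 0.06 in females alone. On total counts alone each of these genes was called higher. In a longer list of 65 other interferon-stimulated genes 42 were higher (against 31% of all genes tested) and 7 lower (against 31.2%). The 3 highest were Ifi27l2b at 3.02 ± 0.13, the chemokine Cxcl10 at 2.50 ± 0.13 and Slfn2 at 2.20 ± 0.13. The 3 lowest were the chemokine Cxcl11 at -1.03 ± 0.19, Gbp11 at -0.83 ± 0.34 and the GTPase Iigp1 at -0.71 ± 0.12, of which the call of Gbp11 was lost in 9 of the 32 fits that left out 1 library (adjusted p = 0.0502 to 0.0933). On total counts alone neither Gbp11 (-0.23) nor Iigp1 (-0.13) was called.

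The diet difference of the 35 genes was read next at each collection time. At ZT2, 11 were higher (against 21% of genes tested) and 4 lower (against 20.7%). At ZT8, 21 were higher (against 20.6%) and none lower (against 19.4%). At ZT14, 26 were higher (against 19.8%) and none lower (against 15.7%), and at ZT20, 16 were higher (against 19.8%) and 2 lower (against 19.3%). Some of these calls were lost in fits that left out 1 library. At ZT2 these were Oas1g (5 of the 32 fits), Ddx58 (4) and Gbp3 (2), and at ZT8 Ifi44 (4) and Zbp1 (2). Irf9 at ZT14 (6) and Rsad2 at ZT20 (1) were lost too, with adjusted p up to 0.164 among all of them. Other genes gained a call in such fits, among them Ifit3b at ZT8 (8). On total counts alone 23 were higher and 1 lower at ZT2, and 28 higher and none lower at ZT20. Those calls include the upward shift of all genes under that scaling (median 0.556 over the 4 times). The shares above are for TMM, and those on total counts are not given. The median log2 fold change of the 35 was 0.29 at ZT2, 0.83 at ZT8, 1.21 at ZT14 and 0.62 at ZT20. The highest log2 fold change, sign included, was at ZT14 in 26 of the 35, at ZT8 in 4, at ZT20 in 3 and at ZT2 in 2. The same count over all genes was not made, so this is a description of the 35. ZT14 was also the only time with uneven numbers of females and males in cdHFD. The genes lower at ZT2 were Stat2 (-1.12 ± 0.22), Mx2 (-1.04 ± 0.28), Irf1 (-0.54 ± 0.15) and Irf9 (-0.37 ± 0.09), and Stat2 (-0.78 ± 0.22) and Mx2 (-0.83 ± 0.28) were lower at ZT20 too. The summed level of the macrophage markers had a median of 1938 CPM at ZT2, 1828 CPM at ZT8, 1615 CPM at ZT14 and 2003 CPM at ZT20 in cdHFD livers. In chow livers it was 562, 531, 410 and 421 CPM at those times.

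A difference of the diet effect between the 4 times passed the test in 8 of the 35, against 5.77% of genes tested. They were Dhx58 (adjusted p = 5.56e-04), Oasl1 (0.00248), Mx2 (0.00675), Irf9 (0.014), Stat2 (0.021), Xaf1 (0.0396), Isg15 (0.0398) and Mx1 (0.0481). Those of Mx1, Isg15 and Xaf1 were lost in 23, 17 and 12 of the 32 fits that left out 1 library, with adjusted p up to 0.15, 0.0839 and 0.0959, and that of Stat2 without chow ZT2 replicate 3 (adjusted p = 0.053). Dhx58, Oasl1, Mx2 and Irf9 kept theirs in all 32. The courses were not alike. Isg15 had log2 fold changes of -0.12 ± 0.30 at ZT2, 0.95 ± 0.30 at ZT8, 1.55 ± 0.30 at ZT14 and 0.49 ± 0.30 at ZT20. Oasl1 had 0.11 ± 0.24, 1.36 ± 0.24, 1.10 ± 0.24 and -0.44 ± 0.24 at those times. Stat2 had -1.12 ± 0.22, 0.10 ± 0.22, -0.12 ± 0.22 and -0.78 ± 0.22. Of the 13 macrophage markers none passed this test, against the same 5.77% of genes tested. With so few markers this does not show that their diet difference was equal at all times.

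Rhythm was tested as a cosine of 24 h over the 4 times, which are 6 h apart, so that it stands for a difference between times of that shape. In cdHFD livers 3 of the 35 genes passed, against 2.47% of genes tested, and in chow livers 17 passed, against 17.7%. The difference between the 2 rhythms passed in 8, against 3.64%. The 17 had fitted amplitudes of 0.24 to 0.87 on the log2 scale in chow (median 0.57), and in cdHFD the same genes had a median of 0.26, smaller than in chow in 15 of the 17. In chow their fitted peaks fell between ZT21.7 and ZT5.89, around lights on, and 15 of the 17 had their highest mean at ZT2 and 15 their lowest at ZT14. The 17 genes were chosen for their chow rhythm, so the smaller cdHFD amplitudes are a description. Over all 35, the highest mean was at ZT2 in 2, ZT8 in 21, ZT14 in 10 and ZT20 in 2 in cdHFD livers, and at ZT2 in 23, ZT8 in 10, ZT14 in 0 and ZT20 in 2 in chow livers. None of the 13 macrophage markers was rhythmic in chow, against 17.7% of genes tested. With so few markers this does not show that their level was constant.

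Dhx58 (chr11:100694884-100704271), the regulator of the RNA sensors, had the clearest chow rhythm. Its levels in replicates 1 to 4 of cdHFD livers were 17.3, 14.8, 16.3 and 18.4 at ZT2, 21.7, 23.4, 22.8 and 18.7 at ZT8, 17.6, 27.0, 17.4 and 20.2 at ZT14, and 14.6, 18.1, 17.8 and 18 at ZT20 (CPM). In chow livers they were 13.6, 22, 22.3 and 21.9 at ZT2, 11.6, 14.9, 16 and 14.1 at ZT8, 8.16, 10.5, 9.41 and 7.92 at ZT14, and 15.9, 20.5, 16.8 and 20.1 at ZT20. All 4 chow livers at ZT14 were below every other chow liver. At ZT8 and at ZT14 every cdHFD liver was above every chow liver of that time, and at ZT2 and ZT20 the diets overlapped. The fitted chow amplitude was 0.59 ± 0.08 with a peak at ZT0.773 (adjusted p = 5.11e-05), the cdHFD amplitude 0.23 ± 0.08 (adjusted p = 0.326), and the rhythms differed between diets (adjusted p = 7.62e-04). Chow ZT2 replicate 1, a male, stood apart at 13.6 CPM from the 21.9 to 22.3 CPM of its group.

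In CPM, Rsad2 (chr12:26442746-26456452) had 18.7, 14.4, 12.5 and 8.21 at ZT2, 12.7, 12.2, 10.7 and 9.61 at ZT8, 8.62, 8.94, 9.64 and 6.61 at ZT14, and 11.1, 11.7, 7.48 and 7.06 at ZT20 in cdHFD livers. In chow livers it had 7.12, 4.20, 7.97 and 21.2 at ZT2, 4.84, 6.82, 3.37 and 6.22 at ZT8, 2.06, 2.17, 2.74 and 3.44 at ZT14, and 2.15, 4.93, 4.78 and 5.72 at ZT20. The 4 chow livers at ZT14 were again low, together with replicate 1 at ZT20 and replicate 3 at ZT8, and the female replicate 4 at ZT2 was far above the other chow livers. At ZT8, ZT14 and ZT20 every cdHFD liver was above every chow liver. The chow amplitude of Rsad2 was 0.87 ± 0.18, peaking at ZT2.69 (adjusted p = 4.55e-04), and its rhythm was not shown to differ between diets (adjusted p = 0.218).

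In CPM, Oasl1 (chr5:114923240-114937915) had 30.1, 22.1, 21.1 and 22 at ZT2, 28.4, 54.8, 32.5 and 33.4 at ZT8, 15.2, 26.4, 18.6 and 23.4 at ZT14, and 20.1, 24.5, 18.4 and 20.6 at ZT20 in cdHFD livers. Chow livers had 15.4, 16.2, 20.8 and 36.3 at ZT2, 15.6, 16.9, 11.7 and 13.9 at ZT8, 11.2, 7.16, 10.2 and 10.6 at ZT14, and 22.9, 29.2, 27.3 and 34.3 at ZT20. In chow its highest mean was at ZT20 and its lowest at ZT14, and in cdHFD its highest mean was at ZT8. At ZT8 and ZT14 every cdHFD liver was above every chow liver, and at ZT2 and ZT20 the diets overlapped. The chow amplitude was 0.73 ± 0.14 with a peak at ZT23.3 (adjusted p = 7.85e-04), and the rhythms differed between diets (adjusted p = 0.00435).

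In CPM, Mx2 had 5.02, 6.14, 6.40 and 9.27 at ZT2, 9.70, 15.2, 10.3 and 7.43 at ZT8, 9.34, 13, 5.58 and 7.57 at ZT14, and 5.13, 4.35, 6.54 and 4.50 at ZT20 in cdHFD livers. In chow livers it had 10.7, 13.2, 17.5 and 13.8 at ZT2, 8.03, 9.10, 6.90 and 8.83 at ZT8, 2.91, 6.44, 5.97 and 8.74 at ZT14, and 9.05, 6.88, 9.63 and 11 at ZT20. At ZT2 and at ZT20 all 4 cdHFD livers were below all 4 chow livers, and at ZT8 and ZT14 the diets overlapped. Mx2 was rhythmic in both diets, with amplitudes of 0.55 ± 0.13 in cdHFD (adjusted p = 0.0247) and 0.64 ± 0.13 in chow (adjusted p = 0.00384), and with fitted peaks at ZT9.48 in cdHFD and ZT1.57 in chow. The 2 rhythms differed (adjusted p = 0.00435). The cdHFD rhythm was lost without cdHFD ZT8 replicate 2 or ZT20 replicate 1, 2 or 4 (adjusted p = 0.0577 to 0.128). The other cdHFD rhythms were those of Irf9 and Usp18, with peaks at ZT9.49 and ZT8.74 (adjusted p = 0.0305 and 0.0386), and they were lost in 8 and 10 of the 32 fits that left out 1 library. For Irf9 these left out cdHFD ZT8 replicate 1, 2 or 3, ZT14 replicate 4 or any ZT20 replicate (adjusted p up to 0.116), and for Usp18 ZT2 replicate 2 and ZT14 replicate 3 as well (up to 0.141).

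In CPM, Isg15 had 20.7, 22.1, 26.5 and 43.5 at ZT2, 35.9, 49.8, 47.8 and 37.7 at ZT8, 24, 54.2, 28.9 and 35.4 at ZT14, and 20.3, 24.2, 31.1 and 21.4 at ZT20 in cdHFD livers. Chow livers had 16.9, 23.0, 33.4 and 51.6 at ZT2, 9.93, 29.0, 27.4 and 24.2 at ZT8, 9.40, 14.5, 15.4 and 13.8 at ZT14, and 15.6, 12.9, 16.2 and 25.4 at ZT20. At ZT8 and at ZT14 all 4 cdHFD livers were above all 4 chow livers, and at ZT2 and ZT20 the diets overlapped. The chow amplitude of Isg15 was 0.58 ± 0.14 with a peak at ZT2.99 (adjusted p = 0.00596), and the difference between diets (adjusted p = 0.0217) was lost without cdHFD ZT14 replicate 2 or chow ZT2 replicate 4 (adjusted p = 0.0575 and 0.0629). Mx1 and Xaf1 followed a like chow course, with amplitudes of 0.77 ± 0.16 and 0.58 ± 0.13 and peaks at ZT2.89 and ZT2.91 (adjusted p = 0.00273 and 0.00509). Xaf1 averaged 20.1 ± 6.48, 22.1 ± 1.87, 24.2 ± 6.72 and 17.6 ± 4.54 CPM by time in cdHFD livers and 16 ± 6.74, 11.7 ± 2.96, 7.17 ± 2.31 and 9.60 ± 2.35 CPM in chow livers.

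Stat2 had its lowest chow mean at another time than the genes above. In CPM, it had 71.5, 69.9, 69.3 and 105 at ZT2, 73.3, 93.1, 90.8 and 86.1 at ZT8, 136, 133, 87.3 and 89.1 at ZT14, and 82.7, 80.0, 94.1 and 84.7 at ZT20 in cdHFD livers. Chow livers had 131, 225, 225 and 103 at ZT2, 78.9, 82.0, 86.4 and 72.8 at ZT8, 91.6, 138, 112 and 151 at ZT14, and 152, 118, 157 and 162 at ZT20. That lowest chow mean was at ZT8. At ZT20 every cdHFD liver was below every chow liver, and at the other times the diets overlapped. The fitted chow peak was at ZT21.7 (amplitude 0.48 ± 0.12, adjusted p = 0.0121), the earliest of the 17, and the difference of its rhythms between diets (adjusted p = 0.0418) was lost in 21 of the 32 fits that left out 1 library (up to 0.0792).

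**Figure D3:**
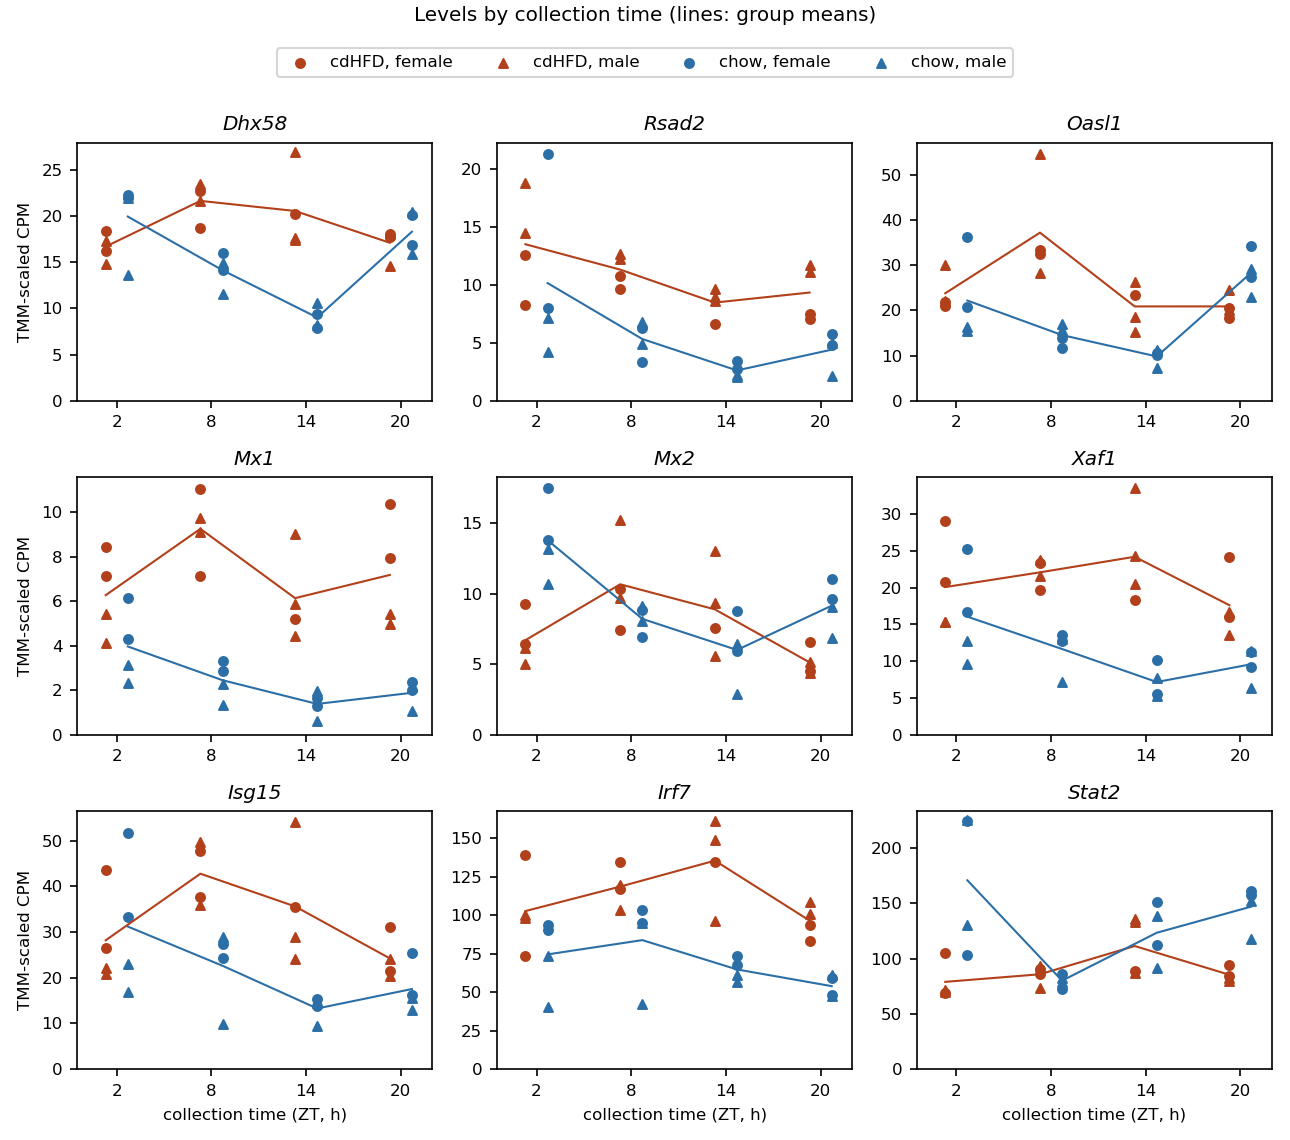
TMM-scaled CPM (y axis, from 0) of 9 of the 35 genes by collection time (x axis, ZT in h), with cdHFD in red and set slightly left and chow in blue and set slightly right. Points are libraries (circles female, triangles male) and lines join group means. Chow lines of Dhx58, Rsad2, Oasl1, Mx1, Mx2, Xaf1 and Isg15 are lowest at ZT14, while that of Stat2 is lowest at ZT8.

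The other genes rhythmic in chow were Irf9, Rtp4, Usp18, Irf1, Cmpk2, Ifit3, Ifit1, Ifit3b and Oas3, with adjusted p between 0.00568 for Irf9 and 0.0296 for Oas3. Oas3 lost its call without chow ZT2 replicate 2, 3 or 4 or ZT14 replicate 1 or 4 (adjusted p = 0.0555 to 0.153). Ifit3b lost it without chow ZT2 replicate 4 or ZT14 replicate 1 (adjusted p = 0.0542 and 0.076), and Cmpk2 without chow ZT2 replicate 4 (adjusted p = 0.0569). Without chow ZT8 replicate 1 the count was 22, with Irf7, Oas1a, Oas1g, Gbp3 and Ifi44 added. Besides the genes above, the rhythms of Irf9 (adjusted p = 0.00893), Xaf1 (0.0262) and Ifit1 (0.045) differed between diets. That of Xaf1 was lost without cdHFD ZT2 replicate 2, cdHFD ZT14 replicate 2, chow ZT2 replicate 3 or chow ZT14 replicate 1 (adjusted p up to 0.0907), and that of Ifit1 in 21 of the 32 fits that left out 1 library (up to 0.106).

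Sex, which the labels give for each library, was compared within each diet. In cdHFD livers none of the 35 genes differed between females and males, against 0.941% of genes tested, although 4 had an unadjusted p under 0.05 (Irf1, Ifit2, Rsad2 and Ifi27) and DESeq2 called none either. In chow livers 18 were higher in females, against 6.12%, and none was lower, against 3.36%. The median log2 fold change of females over males was 0.12 in cdHFD and 0.55 in chow, where it was 0.019 over all genes tested. In cdHFD 26 of the 35 were above 0 and in chow 34, beside 53.3% of all genes tested in each diet. Ifi35 was the exception in chow at -0.15 ± 0.15. In no gene did all chow females lie above all chow males, as in 0.756% of genes tested, nor below them, as in 0.616%.

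Gbp3 (chr3:142560026-142573209) led. In cdHFD livers it ranged from 16.9 to 23.5 CPM (median 21.5) in females and from 15.1 to 23.1 CPM (median 17.2) in males. In chow livers it ranged from 8.82 to 22.5 CPM (median 15.8) in females and from 3.73 to 9.80 CPM (median 4.88) in males. Only 1 chow male reached the range of the chow females, replicate 2 at ZT8 with 9.80 CPM. The log2 fold change of females over males was 0.24 ± 0.16 in cdHFD (adjusted p = 0.796) and 1.48 ± 0.15 in chow (adjusted p = 1.34e-08). Ifi44 ranged from 6.83 to 11.2 CPM (median 9.18) in females and from 6.73 to 11.1 CPM (median 9.07) in males on cdHFD. On chow it ranged from 3.17 to 7.95 CPM (median 5.31) in females and from 0.877 to 6.49 CPM (median 2.29) in males, a log2 fold change of 1.16 ± 0.20 (adjusted p = 1.02e-04). Here too 1 chow male, replicate 2 at ZT8, lay among the females. Zbp1 had 1.08 ± 0.21 in chow (adjusted p = 3.05e-04) and Oas3 1.01 ± 0.16 (adjusted p = 1.04e-04).

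By role, the female excess in chow was called in 4 of 4 IFIT genes, 5 of 6 OAS genes, 3 of 5 MX and GBP genes, 2 of 4 sensors, 1 of 2 genes of the ISG15 system, 1 of 4 transcription factors and 2 of 10 effectors. Log2 fold changes of the IFIT genes ran from 0.67 for Ifit2 to 0.92 for Ifit3b, with Ifit1 and Ifit3 both at 0.82. Oas2 had 0.87, Oas1a 0.85, Oasl2 0.74 and Oas1g 0.73, while Gbp2 had 0.89 and Gbp7 0.86. Irf1 had 0.55, Usp18 0.51, Parp14 0.48 and Ddx58 0.32. Usp18 lost its call without chow ZT2 replicate 1, 2 or 4, ZT8 replicate 1 or 4, or ZT20 replicate 1 or 4 (adjusted p up to 0.0937), Oas1g without chow ZT2 replicate 1 or 3, ZT8 replicate 1 or ZT14 replicate 1 (up to 0.0953), and Oas2 without chow ZT2 replicate 3 (adjusted p = 0.0563). Isg15 was not called at 0.58 ± 0.21 (adjusted p = 0.0607), but was without any 1 of 5 libraries, among them chow ZT8 replicate 2 and chow ZT14 replicate 2 (adjusted p = 0.00707 to 0.0454).

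**Figure D4:**
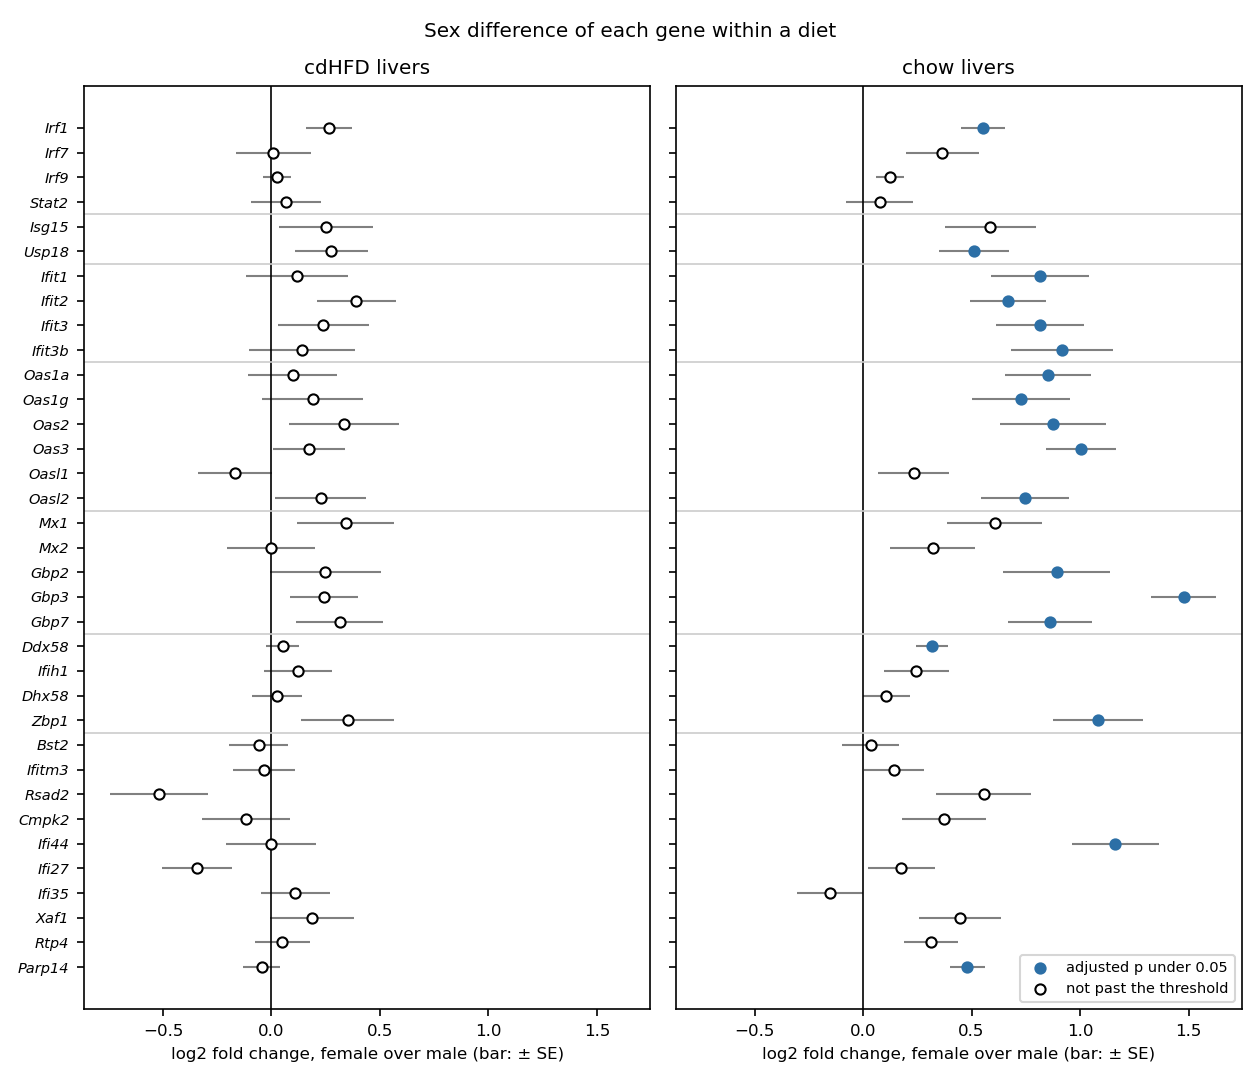
Log2 fold change of females over males for each of the 35 genes by role, in cdHFD livers on the left and in chow livers on the right. Points are edgeR estimates, bars are ± SE from the linear model of log2 CPM, and filled points have an adjusted p under 0.05. In chow 18 points are filled and all lie right of 0, while in cdHFD none is filled.

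The diet and sex comparisons share the chow livers, so their values stand side by side and are not independent. The sex difference was smaller in size in cdHFD than in chow in 33 of the 35 genes. The share of all genes for which this held was not counted. Over all genes tested, 9.47% were called for sex in chow and 0.941% in cdHFD, so fewer calls in cdHFD are not particular to the 35. The change of the sex difference with diet was below 0 in 34 of the 35 and in 51.9% of all genes tested, and it passed the test in 3, all below 0, against 1.05% of genes tested. These were Gbp3 (-1.24 ± 0.22, adjusted p = 4.93e-04), Ifi44 (-1.16 ± 0.29, adjusted p = 0.0148) and Parp14 (-0.53 ± 0.12, adjusted p = 0.0231), the last lost without cdHFD ZT8 replicate 4 or ZT14 replicate 4 (adjusted p = 0.0504 and 0.0641). Without chow ZT8 replicate 2 the count was 7. Fitted in females alone, 22 were higher in cdHFD (against 21.7% of the genes tested there) and 3 lower, Stat2, Mx2 and Ifi27 (against 19.1%), with a median log2 fold change of 0.40. In males alone 25 were higher (against 25.6%) and 1 lower, Stat2 (against 24.1%), with a median of 0.94. Gbp3, for example, had 0.46 in females and 1.71 in males, and Ifit1 -0.09 in females (adjusted p = 0.612) and 0.63 in males (adjusted p = 0.0104).

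Macrophage markers moved with sex as well. Over all genes tested, 6.12% were higher and 3.36% lower in chow females, and 0.941% were called for sex in cdHFD. In cdHFD 0 of the 13 were higher and 1 lower in females, with a summed level of 1612 to 2083 CPM in females (median 1850) and 1332 to 2266 CPM in males (median 1869). In chow 12 of the 13 were higher in females, all but Gpnmb, with 474 to 727 CPM in females (median 601) and 156 to 495 CPM in males (median 345). Of 11 T and NK cell markers 3 were higher and 1 lower in chow females, and of 8 plasmacytoid dendritic cell markers 1 was higher. Their part in the sex difference of the 35 genes was not tested. In the list of 65 other interferon-stimulated genes 26 were higher in chow females and none lower.

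Single libraries were read through the mean log2 CPM of the 35 genes. It had a median of 4.67 in cdHFD females (range 4.43 to 5.0), 4.61 in cdHFD males (4.36 to 4.93), 4.13 in chow females (3.74 to 4.59) and 3.57 in chow males (3.15 to 4.16). The highest chow livers, the 2 females at ZT2 with 4.59 each, lay within the cdHFD range, and the lowest of all were the male replicates 1 at ZT14 (3.15) and ZT8 (3.24). In each group 1 library held the highest value of more of the 35 genes than any other. In cdHFD it was the female replicate 4 at ZT2 (19 of the 35 highest there, 36.9% of all genes tested), the female replicate 3 at ZT8 (18; 21.3%), the male replicate 2 at ZT14 (16; 30.9%) and the female replicate 3 at ZT20 (24; 33.3%). In chow it was the female replicate 3 at ZT2 (17; 22.8%), the female replicate 4 at ZT8 (16; 19.1%), the female replicate 3 at ZT14 (19; 24.8%) and the female replicate 4 at ZT20 (24; 22.7%). A female held this place in 7 of the 8 groups.

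At the low end, chow ZT8 replicate 1, a male, had the lowest value of its group in 29 of the 35 genes, against 33.3% of all genes tested, and also the lowest summed macrophage markers of all 32 libraries, at 156 CPM. The other male of that group, replicate 2, was lowest in 1 of the 35 and had a macrophage sum of 495 CPM. Chow ZT14 replicate 1 was lowest in 25 (34.2% of all genes) and chow ZT2 replicate 1 in 20 (22.3%). Over the 32 fits that left out 1 library, among them the fit without chow ZT8 replicate 1, 25 to 26 of the 35 genes were called for diet.

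**Figure D5:**
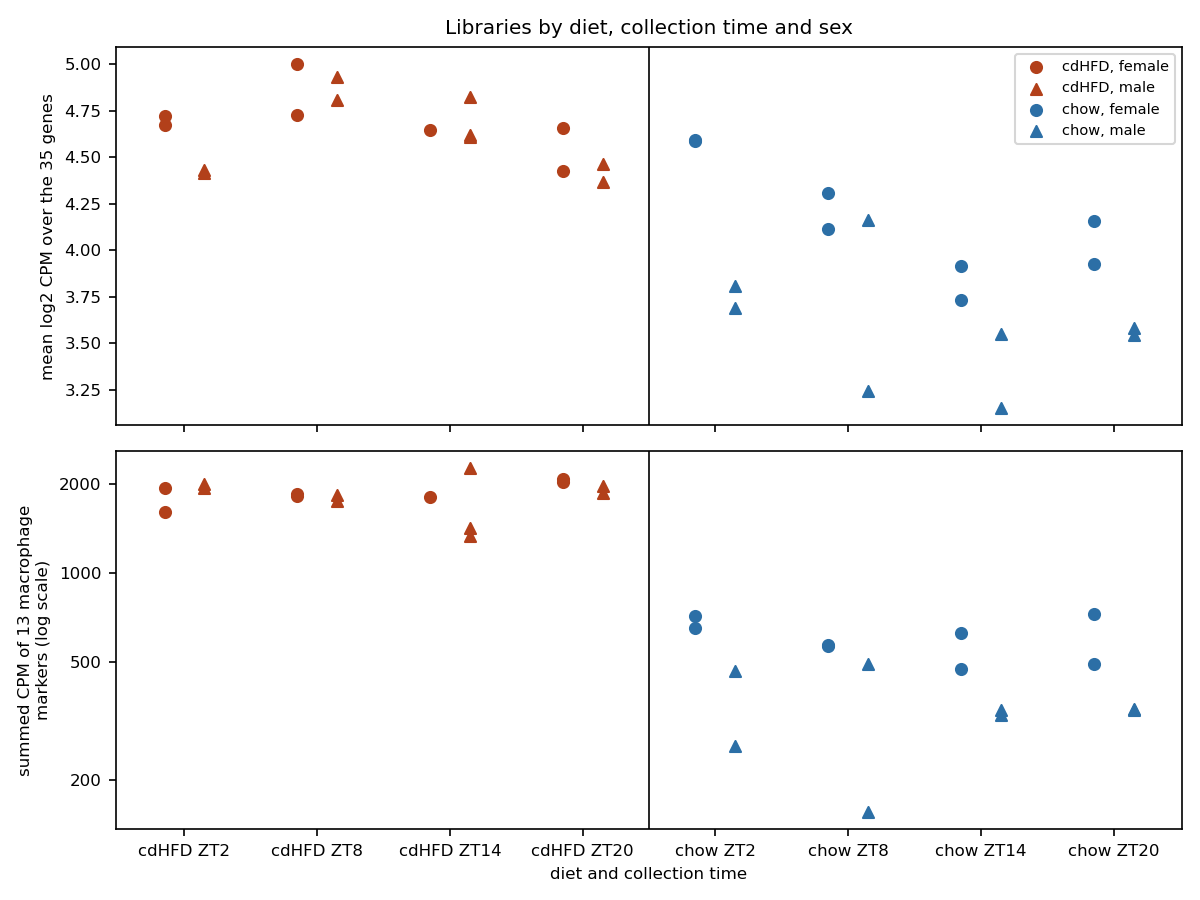
Mean log2 CPM of the 35 genes (upper panel) and summed CPM of 13 macrophage markers on a log scale (lower panel) for each of the 32 libraries, by diet and collection time, with circles for females and triangles for males. In chow the lowest triangle of both panels at ZT8 is replicate 1, at 3.24 and 156 CPM, and no cdHFD value of the lower panel lies below 1332 CPM.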

How the data were processed

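The liver libraries were poly-A selected and non-directional, per the labels' protocols. The submitters' processing notes name HISAT2, featureCounts, DESeq2, GRCm38 and mm10, with no versions. The values are raw read counts per gene, deposited by the authors for all 32 libraries in 1 table. Samples were grouped by diet and ZT, with sex from the labels.

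The models were fitted with edgeR 4.0.16 and limma 3.58.1 under R 4.3.3. Genes passed edgeR's default filter over the 8 groups, counts were scaled by TMM, and robust quasi-likelihood models covered all 17853 genes: the 8 groups plus sex, a cosine of 24 h within each diet, and sex within each diet. Adjusted p-values cover all genes tested, at 0.05. Log2 CPM used a prior count of 2. TMM moves every diet difference by a common amount, which the scaling alternatives show. The tests were checked on simulated data. Alternatives were other scaling, filters, DESeq2 1.42.0, no sex term, a replicate block, 1 sex at a time, a test among the 4 times, and each library left out in turn, and the last was listed gene by gene after the data were seen. Depth was 29.5 to 54.6 M counts a library.

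The 35 genes and the other lists were chosen with earlier results of these data known. Named with all values were the 10 largest diet differences past the threshold, any gene called lower, the 6 smallest p-values for rhythm in chow, and Isg15, Irf7 and Ifit1. The other genes of the 35 are given by fold change, and of the 65 other interferon-stimulated genes the 3 highest and 3 lowest past the threshold. Remarks on single libraries, and the sex differences named, were chosen after their values were seen. Replicates of a group differed by 13.9 to 246 in chi-square per degree of freedom, so none was taken as a repeat of another. No protein sequences were used here. A gene of the signalling list is not reported here.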

Additional observations from a re-analysis of the deposited data

Results flagged for a closer look

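In 13 of 280 groups of 4 libraries, 1 library of a gene stood far from the other 3, and chance alone gives this in about 1 in 20 groups. Chow ZT8 replicate 1 was low in 3 of them: Irf7 had 42.3 CPM, against 95 to 103 CPM in the other replicates, Oas1g 1.07 CPM, against 3.24 to 3.48 CPM, and Xaf1 7.23 CPM, against 12.8 to 13.5 CPM. Oas1g was also low in chow ZT14 replicate 1, at 0.994 CPM, against 3.22 to 3.56 CPM. Dhx58 was low in chow ZT2 replicate 1, at 13.6 CPM, against 21.9 to 22.3 CPM.

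Among cdHFD livers, Stat2 was high in ZT2 replicate 4 (105 CPM, against 69.3 to 71.5 CPM), Oasl1 in ZT2 replicate 1 (30.1 CPM, against 21.1 to 22.1 CPM) and Gbp3 in ZT2 replicate 3 (22.1 CPM, against 16.9 to 17.3 CPM). Oas1g was high in ZT8 replicate 3 (13 CPM, against 9.89 to 10.3 CPM) and Oasl2 in ZT14 replicate 2 (33.2 CPM, against 20.3 to 22.4 CPM). Cmpk2 was low in ZT8 replicate 4 (9.75 CPM, against 11.6 to 11.9 CPM), Dhx58 in ZT20 replicate 1 (14.6 CPM, against 17.8 to 18.1 CPM) and Ddx58 in ZT20 replicate 3 (27.3 CPM, against 28.8 to 29.0 CPM).

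The diet difference changed between the 4 times in 8 genes, with adjusted p from edgeR's quasi-likelihood test of 5.56e-04 for Dhx58, 0.00248 for Oasl1, 0.00675 for Mx2, 0.014 for Irf9, 0.021 for Stat2, 0.0396 for Xaf1, 0.0398 for Isg15 and 0.0481 for Mx1. The rhythms differed between the diets in 8 genes, with adjusted p of 7.62e-04 for Dhx58, 0.00435 for Oasl1, 0.00435 for Mx2, 0.00893 for Irf9, 0.0217 for Isg15, 0.0262 for Xaf1, 0.0418 for Stat2 and 0.045 for Ifit1. The diet difference changed with sex in 3 genes, with adjusted p of 4.93e-04 for Gbp3, 0.0148 for Ifi44 and 0.0231 for Parp14.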

How the results depend on the processing

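The counts of genes called for diet (25), at ZT14 (26), for rhythm in chow (17) and for sex in chow (18) moved by less than 1.5 times under each setting tried. On total counts alone 24 were called for diet at ZT2, 32 at ZT8 and 28 at ZT20, 0 were rhythmic in cdHFD, and 5 changed their diet difference with sex. With no filter on low counts, 15 changed their diet difference with time, 8 were rhythmic in cdHFD, 14 differed in rhythm between diets, 1 differed by sex in cdHFD and 8 changed their diet difference with sex. DESeq2 called 5 genes rhythmic in cdHFD and 5 for diet by sex. Without the sex term 5 were called for diet by time and 5 for rhythm between diets. A test among the 4 times called 21 in chow and 4 in cdHFD. The cause of these moves was not tested, and the share of all genes called under each of these settings is not given.

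Leaving out 1 library gave 25 to 26 genes for diet, 13 to 17 at ZT2, 20 to 24 at ZT8, 25 to 27 at ZT14, 17 to 19 at ZT20, 4 to 12 for diet by time, 14 to 22 rhythmic in chow, 0 to 5 rhythmic in cdHFD, 4 to 10 for rhythm between diets, 16 to 22 for sex in chow, 0 for sex in cdHFD and 2 to 7 for diet by sex. Diet by time held 5 genes without cdHFD ZT2 replicate 2 or 3, ZT8 replicate 3, ZT14 replicate 2 or ZT20 replicate 1, or without chow ZT14 replicate 1 or 4 or ZT20 replicate 4, and 4 without chow ZT2 replicate 3. Rhythm in cdHFD held 0 without cdHFD ZT8 replicate 2 or ZT20 replicate 1, 2 or 4, 1 without cdHFD ZT8 replicate 1 or 3, ZT14 replicate 4 or ZT20 replicate 3, and 5 without chow ZT2 replicate 4 or ZT8 replicate 1. Rhythm between diets held 5 without cdHFD ZT2 replicate 2, chow ZT2 replicate 3 or chow ZT14 replicate 1, and 4 without cdHFD ZT14 replicate 2.

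The replicate numbers did not pair the libraries: same-number pairs had a mean correlation of residuals of -0.038 (15.2% over 0.1), different numbers 0.0128, and 1 library correlated best with its own number. With the replicate number as a block, 25 genes were called for diet, 16 at ZT2, 23 at ZT8, 26 at ZT14, 19 at ZT20, 6 for diet by time, 17 for rhythm in chow, 2 in cdHFD and 6 for rhythm between diets.

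Of 86 diet fold changes recomputed, 57 kept direction and call on total counts alone and 86 under DESeq2. Total counts alone, which moved the median of all genes to 0.556, turned the sign of Irf1 (0.52), Irf9 (0.54), Stat2 (0.093), Mx2 (0.36), Ifitm3 (0.52), Ifi27 (0.36), Ifi35 (0.40), Ifnar2 (0.44), Tyk2 (0.54), Stat3 (0.37), Irf3 (0.15), Socs3 (0.55), Pias1 (0.56), Irf2 (0.38), Psme1 (0.41), Psme2 (0.36), B2m (0.20) and H2-K1 (0.19). In males alone the sign turned in Irf1 (0.072), Irf9 (0.021), Ifitm3 (0.031), Ifi27 (0.052), Pias1 (0.13) and Nlrc5 (-0.052), and in females alone in Ifit1 (-0.095), Gbp7 (-0.33), Socs3 (0.20), Psmb8 (-0.13), Psmb10 (-0.012) and Psme1 (0.065). Gbp7 was at -0.034 and Psmb10 at -0.0069 with the replicate block and at -0.076 and -0.0073 without the sex term, and Pias1 was at 0.012 with no filter. Leaving out 1 library, Gbp7 lay between -0.05 and 0.075, Tyk2 between -0.056 and 0.0058, Socs3 between -0.11 and 0.071, Pias1 between -0.044 and 0.015, Psmb8 between -0.0028 and 0.12 and Psmb10 between -0.048 and 0.041, and for sex in chow Stat2 between -0.013 and 0.18 and Bst2 between -0.040 and 0.082. None of the 12 interferon genes passed the filter, so a diet difference in them was not tested. The lowest count of the 35 genes in a library was 18.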
